A study of Homo sapiens with 6 samples.

Results

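The genes described here encode the subunits, activators and assembly factors of the proteasome, measured in polyadenylated RNA of LX-2, an established line of hepatic stellate cells, which make the liver's scar matrix. Members were chosen by symbol, as every row of the expression table that starts with PSMA, PSMB, PSMC, PSMD, PSME or PSMG and a number. This gave 52 of 22701 rows: 46 genes of proteasome proteins and 6 other rows that share the prefix (4 antisense transcripts and the genes PSMC3IP and PSME3IP1, which are named after a proteasome partner). In 3 libraries the cells had received TGF-β and 20 µM ligustilide (LIG), a phthalide of Angelica and Ligusticum roots. They were set against 3 libraries of cells that had received TGF-β alone. TGF-β, the cytokine that activates stellate cells, was thus present in all 6 libraries, at a dose the labels state as 5 µg/mL, and its own effect was not measured. The treatment time and whether the replicates were separate cultures are not stated, so the p-values speak only of the spread among these 6 samples. No library without TGF-β was analysed here.

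The proteasome is the cell's main protease for proteins tagged with ubiquitin. Its barrel-shaped 20S core is built from rings of α subunits (PSMA genes), which gate the entrance, and β subunits (PSMB genes), of which PSMB5, PSMB6 and PSMB7 carry the cutting sites. The 19S cap has a ring of ATPases (PSMC genes) that unfold substrates and a set of non-ATPase subunits (PSMD genes) that bind ubiquitin chains and remove them. Interferons and other inflammatory signals induce PSMB8, PSMB9 and PSMB10, which replace PSMB5, PSMB6 and PSMB7 in newly built cores to form the immunoproteasome, known for producing peptides for antigen presentation. When proteasomes are inhibited, the transcription factor NRF1 (NFE2L1) raises the genes of the standard subunits together, through antioxidant response elements, the same kind of element that NRF2 uses.

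The libraries held between 38401783 and 39260090 fragments, recovered from the steps of the FPKM values (fragments relative to gene length and library depth), and each of the 31 standard subunits of the core and the cap had 3079 to 56281 fragments in a library. LIG replicate 3 and TGF-β replicate 2 stood apart from the other 4 on the first principal component (55.1% of the variance). Their summed FPKM was 362034 and 348518, against 324022 to 328949 in the others, and results that rest on them are given with and without them. Of 11 stellate cell and myofibroblast markers in the table, 9 had a mean of at least 1 FPKM. The 11 summed to 2800 to 3160 FPKM with LIG and 3090 to 3280 FPKM with TGF-β alone, mostly VIM and COL1A1. DES was at 0.0115 FPKM or less and ACTA2 at 3.43 FPKM or less. Single markers went both ways under these sums. COL1A1, COL3A1, PDGFRB and SPARC were lower in every LIG library than in every TGF-β library, against 6.73% of all genes tested. TIMP1 was higher in every LIG library, against 9.07%, and the groups overlapped for the other markers. Markers of leukocytes summed to 14.6 to 16.2 FPKM with LIG and 13.5 to 15.6 FPKM with TGF-β alone, mostly CD68, and PTPRC was at 0.016 FPKM or less. Cholangiocyte markers, mostly SOX9, summed to 11.2 to 11.9 FPKM with LIG and 13.6 to 13.9 FPKM with TGF-β alone; those of hepatocytes and endothelial cells stayed below 5 FPKM in all libraries. The part of these differences in the results was not tested.

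Promoter sequence, taken from RefSeq on GRCh38.p14 as the 250 bases before the annotated start, was matched for 46 of the 52 rows; PSMA7, PSMB1, PSMB6, PSMB7, PSMD4 and PSMG3 had no match. The windows of PSMD3 (chr17:39980557-39980806, + strand) and PSMD11 (chr17:32444260-32444509, + strand) are shown because these cap genes had the smallest p-values of all members. Those of PSMB9 (chr6:32853942-32854191, + strand) and PSMB10 (chr16:67936851-67937100, - strand) are shown because the immunoproteasome genes had estimates of the opposite sign. These windows follow the RefSeq starts, which differ from the GENCODE starts used for the gene coordinates given further on. All or part of each of these 4 windows lies within the GENCODE span of its gene. Each is written 5′ to 3′ on the strand of its gene. Capitals mark matches to the core of the antioxidant response element, TGACNNNGC, or to paired half-sites of interferon response elements, which are a pair of GAAA words with any 2 bases between them, each searched on both strands; no match of one overlapped a match of the other in these 4 windows.
PSMD3: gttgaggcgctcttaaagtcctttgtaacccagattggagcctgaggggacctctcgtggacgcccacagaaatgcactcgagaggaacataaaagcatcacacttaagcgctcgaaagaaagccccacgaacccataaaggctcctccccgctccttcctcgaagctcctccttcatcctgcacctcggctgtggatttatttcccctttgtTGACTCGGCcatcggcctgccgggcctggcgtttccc
PSMD11: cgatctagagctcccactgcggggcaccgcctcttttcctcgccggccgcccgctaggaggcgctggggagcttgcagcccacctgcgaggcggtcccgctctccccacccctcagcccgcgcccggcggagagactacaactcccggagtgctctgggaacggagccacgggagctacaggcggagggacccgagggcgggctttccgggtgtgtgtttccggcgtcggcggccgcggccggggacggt
PSMB9: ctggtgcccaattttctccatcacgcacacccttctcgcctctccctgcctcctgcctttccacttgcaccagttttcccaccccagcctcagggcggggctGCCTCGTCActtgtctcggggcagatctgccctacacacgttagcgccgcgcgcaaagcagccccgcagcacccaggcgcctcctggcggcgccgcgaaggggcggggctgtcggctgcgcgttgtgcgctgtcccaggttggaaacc
PSMB10: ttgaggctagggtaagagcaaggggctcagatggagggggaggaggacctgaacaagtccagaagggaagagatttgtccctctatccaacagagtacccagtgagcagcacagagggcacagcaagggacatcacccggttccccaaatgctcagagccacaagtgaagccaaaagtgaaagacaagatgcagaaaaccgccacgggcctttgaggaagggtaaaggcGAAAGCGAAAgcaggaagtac
PSMD3 held an antioxidant response core at positions -37 to -29 from the RefSeq start and PSMB9 held one on the opposite strand at -148 to -140. PSMB10 held the interferon pattern at -21 to -12, and PSMD11 held neither. The antioxidant response core was found in 11 of 40 matched protein genes (27.5%), against 12.3% of the windows of all genes kept for testing. These 11 were PSMB3, PSMB9, PSMD3, PSMD5, PSMD9, PSMD12, PSME1, PSME2, PSME4, PSMG1 and PSMG2, so that none of 6 α subunits and none of 6 cap ATPases held it. Their median log2 change with LIG was 0.05, against 0.12 for the 27 matched and tested genes without it. The interferon pattern was found in 5 of 40 (12.5%), against 2.33% of the windows of all kept genes, namely in PSMA4, PSMB4, PSMB10, PSME2 and PSMG4. The 4 of these that were tested had a median log2 change of 0.06 (from -0.17 to 0.12). For the 34 matched and tested genes without it, the median was 0.11. A match describes the letters of a window and does not show that a factor binds there.

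The standard subunits were abundant in all libraries, but their transcripts were not equal in level, although each subunit is present in the same number of copies in the finished particle. Per length, the 14 genes of the 20S core spanned a 9.69-fold range in mean FPKM over the 6 libraries. PSMA7, an α subunit, was highest at 328 FPKM, and PSMB2, a structural β subunit, was lowest at 33.9 FPKM. Among the 17 cap genes, PSMD2, a large scaffold subunit at the base of the cap, reached 427 FPKM, and PSMD12, a subunit of its lid, had 34.3 FPKM. Without PSMD2 the other 16 cap genes spanned a 3.34-fold range, with the ATPase gene PSMC5 on top at 114 FPKM. The immunoproteasome genes were lower than every standard core gene, with PSMB8 at 21.6, PSMB9 at 14.7 and PSMB10 at 11.1 FPKM. PSMB11, whose product belongs to the thymus-specific proteasome, had between 0 and 3 fragments in a library, the highest value being 0.0419 FPKM.

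**Figure D1:**
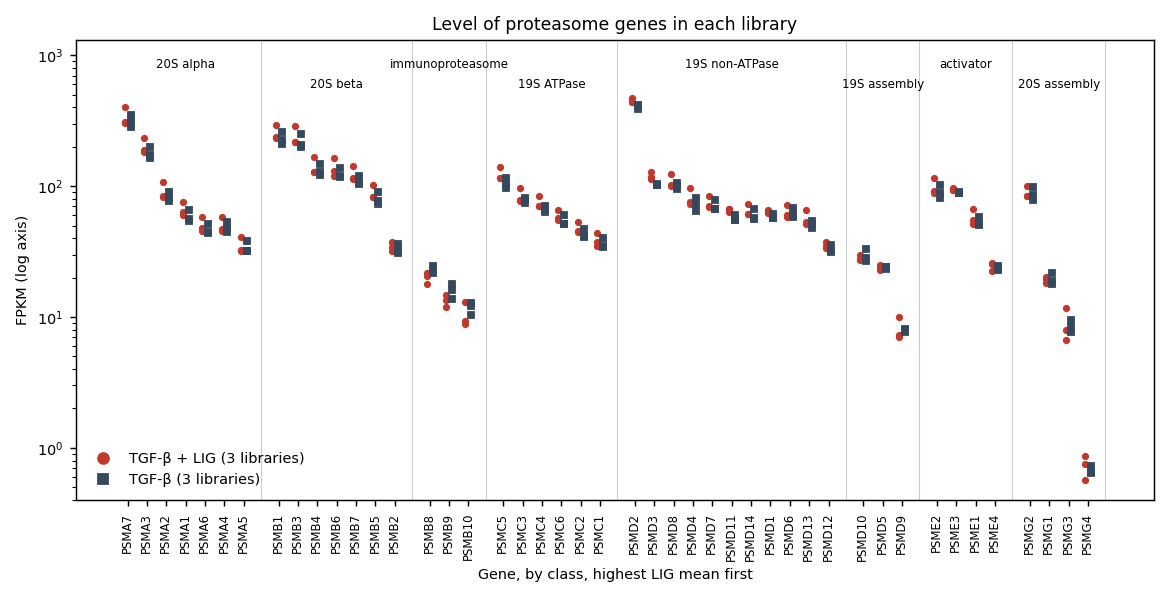
FPKM of 45 proteasome genes (log axis) in the 3 libraries with TGF-β and LIG (circles) and the 3 with TGF-β alone (squares), by class; PSMB11 and the rows that encode no proteasome protein are left out. Differences between genes of a class exceed those between groups, and the immunoproteasome genes lie below every gene of the standard core.

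No member passed the threshold for a change with LIG. Of the 52 rows, 48 had a mean of at least 1 FPKM and were tested, and 0 of 48 passed in either direction (limma, Benjamini-Hochberg adjusted over 10695 genes, smallest adjusted p = 0.354), against 0.692% of all genes tested (0.187% higher and 0.505% lower). At an unadjusted p below 0.05 there were 3 members, PSMD3, PSMD11 and PSMB8-AS1, against 8.41% of all genes tested. No member was called by limma voom on the recovered fragments either (3 at an unadjusted p below 0.05). The 4 rows below 1 FPKM were PSMB11, PSMG4, PSMD6-AS2 and PSMG3-AS1. The intervals of single genes were wide: for PSMD3 the 95% interval of the log2 change was 0.06 to 0.38, and for PSMB3 it was -0.18 to 0.44.

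Below the threshold, the classes differed in the sign of their estimates. The log2 change was above 0 in 14 of 14 standard core genes (median 0.13, from 0.03 to 0.17) and in 17 of 17 cap genes (median 0.13, from 0.02 to 0.23), against 60.9% of all genes tested (median 0.03). It was below 0 in 3 of 3 immunoproteasome genes (median -0.19). For the 6 tested assembly genes it lay between -0.05 and 0.03. In 5 members all 3 libraries with LIG lay above all 3 with TGF-β alone (PSMD1, PSMD2, PSMD3, PSMD11 and PSME3), and in 0 all lay below, against 9.07% and 6.73% of all genes tested. Members share their libraries and are not independent observations, so these counts carry no test.

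**Figure D2:**
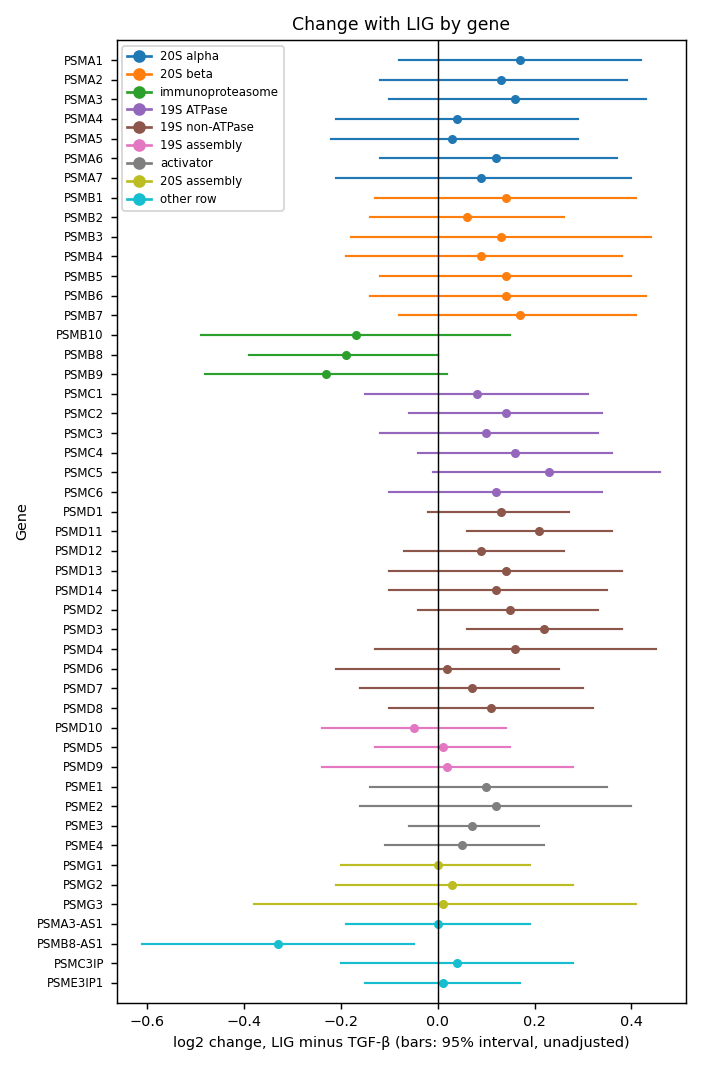
Log2 change, LIG minus TGF-β, with its unadjusted 95% interval (bars) from limma for the 48 tested members, coloured by class. The points of the 31 standard core and cap genes lie right of 0 and those of PSMB8, PSMB9 and PSMB10 left of it; 0 of 48 passed after adjustment.

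The groups overlapped for 27 of the 31 standard core and cap genes, and 1 library of each group was high over nearly all of them. Of the 31 standard core and cap genes, 31 were highest of their group in LIG replicate 3 and 28 in TGF-β replicate 2. Over all genes tested, these libraries were highest of their group in 50.3% and 48.8%. The median of the 31 genes lay 0.20 above the group mean on the log2 scale in LIG replicate 3 and 0.14 above it in TGF-β replicate 2. The immunoproteasome genes followed the same libraries. All 3 were highest of their group in LIG replicate 3 and in TGF-β replicate 2, with medians 0.13 and 0.11 above the group mean. Without LIG replicate 3, the median change of the 31 was 0.03, against 0.02 for all genes tested, with 21 of 31 above 0. In that fit the 14 core genes had a median of 0.01, with 8 of 14 above 0. Without TGF-β replicate 2 the median of the 31 was 0.19, against 0.03 for all genes, with 31 of 31 above 0. Without both, a comparison chosen after seeing the data, it was 0.11, against 0.02, with 30 of 31 above 0. In that comparison 3 of 48 members passed as higher (PSMC5, PSMD3 and PSMD11) and PSMB8-AS1 passed as lower, against 1.95% and 2.69% of all genes tested (4.65% in all). When libraries far from the fit were given less weight (limma quality weights), 8 members passed as higher (PSMA1, PSMC2, PSMC4, PSMC5, PSMD1, PSMD3, PSMD11 and PSME4) and 3 as lower (PSMB9, PSMB10 and PSMB8-AS1). That fit called 10.4% of all genes as higher and 7.24% as lower (17.7% in all), so the members' shares are read against a high background. The immunoproteasome genes had changes below 0 in each of these fits (medians -0.29, -0.14, -0.21 and, with weights, -0.32).

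Gene length moved with the same libraries. Among all genes tested, those under 1500 bases (1123) had a median deviation of 0.21 in LIG replicate 3 and 0.14 in TGF-β replicate 2. Those over 3000 bases (7003) had -0.04 and -0.01. The 10 standard subunit genes under 1500 bases deviated by 0.25 and 0.15, and the 10 over 3000 bases by 0.14 and 0.12, so the longer subunit genes stood above genes of like length in these libraries. The median change with LIG was 0.14 for the short and 0.11 for the long subunit genes, against 0.05 and 0.02 for all genes of these lengths. Whether length or the state of the RNA contributes to the difference between the groups was not tested.

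**Figure D3:**
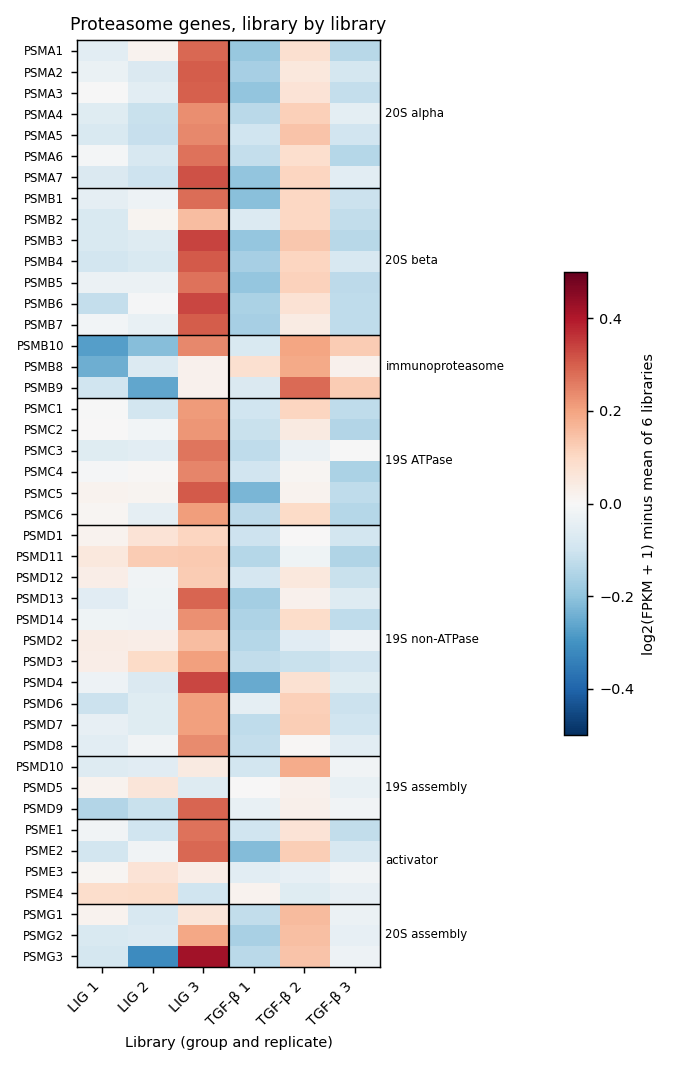
Log2(FPKM + 1) of the 44 tested proteasome protein genes in each library, minus the mean of the 6 libraries (colour), with the LIG libraries left of the line. LIG replicate 3 and TGF-β replicate 2 are high over most core and cap genes. PSMB8, PSMB9 and PSMB10 are also highest of their group in these libraries, and their rows are lowest in LIG replicate 1 or 2.

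Summed over the 14 genes, the standard 20S core held 1700.7, 1700.3 and 2179.9 FPKM in the LIG libraries, against 1558.7, 1892.1 and 1645.6 FPKM with TGF-β alone, and the groups overlapped. As a share of all FPKM in a library, this was 0.522%, 0.517% and 0.602% with LIG and 0.481%, 0.543% and 0.5% with TGF-β alone, again with overlap. The 17 cap genes made up 0.47%, 0.468% and 0.489% with LIG, against 0.428%, 0.441% and 0.44% with TGF-β alone. For the cap the 3 shares with LIG all lay above the 3 others. Its summed FPKM overlapped between the groups. The sums were 1530.5, 1537.6 and 1771.9 FPKM with LIG, against 1387.6, 1536.6 and 1448.8 FPKM with TGF-β alone. The 3 immunoproteasome genes made up 0.0124%, 0.0127% and 0.0137% with LIG, against 0.0145%, 0.0159% and 0.0152% with TGF-β alone, so here all shares with LIG lay below the others. Their summed FPKM overlapped, at 40.4, 41.7 and 49.8 with LIG, against 46.9, 55.3 and 49.9 with TGF-β alone. Each share divides by the summed FPKM of its library, which was highest in LIG replicate 3 and TGF-β replicate 2. How often such shares separate for other sets of genes was not tested. In RNA from whole cultures, a change in the number of cells that carry a transcript and a change in its amount per cell cannot be told apart.

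Among the α subunits, whose tails close the gate of the core, the 3 with the smallest p were PSMA1, PSMA3 and PSMA2. PSMA1 had 60.0, 63.1 and 76.2 FPKM with LIG, against 54.4, 65.9 and 56.5 FPKM with TGF-β alone. PSMA3 had 189, 183 and 233 FPKM with LIG, against 165, 199 and 174 FPKM with TGF-β alone. PSMA2 had 84.6, 82.3 and 107 FPKM with LIG, against 77.1, 89.8 and 81.5 FPKM with TGF-β alone. In each gene LIG replicate 3 was highest and TGF-β replicate 2 lay above LIG replicates 1 and 2, so the groups overlapped. The log2 changes were 0.17 ± 0.11 (SE; adjusted p = 0.785), 0.16 and 0.13, and 0.06, 0.05 and 0.01 without LIG replicate 3. The other 4 (PSMA4, PSMA5, PSMA6 and PSMA7) had changes from 0.03 to 0.12. PSMA2 and PSMA6 have 3 and 4 GENCODE pseudogenes, with which reads may be shared. On the same strand, AC018523.2 overlaps 24.7% of the exon bases of PSMA1, AC010132.3 14.6% of PSMA2 and AL121594.1 14.1% of PSMA6. On the opposite strand, AC010132.2 overlaps 19.5% of those of PSMA2.

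The catalytic β subunits come first. PSMB7, which carries the trypsin-like site, had 115, 113 and 144 FPKM with LIG, against 103, 119.7 and 106 FPKM with TGF-β alone. PSMB5, with the chymotrypsin-like site targeted by proteasome-inhibiting drugs, had 82.3, 82.2 and 101 FPKM with LIG, against 73.3, 91.0 and 76.6 FPKM with TGF-β alone. PSMB6, with the caspase-like site, had 121, 130.5 and 166 FPKM with LIG, against 117, 138 and 120.0 FPKM with TGF-β alone. In all 3 the lowest library was TGF-β replicate 1 and the highest LIG replicate 3, with overlap between the groups. Their log2 changes were 0.17 ± 0.11 (SE; adjusted p = 0.772), 0.14 and 0.14. PSMB1, a structural subunit, had 235, 238 and 294 FPKM with LIG, against 209.6, 261 and 225 FPKM with TGF-β alone (log2 change 0.14). PSMB2, PSMB3 and PSMB4 had changes from 0.06 to 0.13.

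In the ATPase ring of the cap, PSMC5 (chromosome 17, 63827152 to 63832026 on GRCh38) had the highest estimate of all members. Its levels were 115, 115 and 141 FPKM with LIG, against 96.7, 115 and 104 FPKM with TGF-β alone. LIG replicates 1 and 2 lay just below TGF-β replicate 2, and the log2 change was 0.23 ± 0.10 (SE; adjusted p = 0.616). FTSJ3, on the opposite strand, overlaps 19.5% of the annotated exon bases of PSMC5, and the use of strand in counting is not stated. PSMC4 had 70.1, 70.8 and 83.4 FPKM with LIG, against 65.8, 70.8 and 63.0 FPKM with TGF-β alone, and PSMC2 had 45.4, 44.9 and 53.1 FPKM with LIG, against 42.0, 46.9 and 40.9 FPKM with TGF-β alone. In both, TGF-β replicate 2 lay above LIG replicates 1 and 2. Their log2 changes were 0.16 and 0.14 (adjusted p = 0.702 and 0.765). PSMC1, PSMC3 and PSMC6 had changes from 0.08 to 0.12. PSMC1 has 13 annotated pseudogenes and shares 75.8% of its exon bases with NRDE2 on the opposite strand, so its value is uncertain.

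Among the non-ATPase subunits of the cap, the groups did not overlap for 4 of 11 genes, all higher with LIG, against 9.07% of all genes tested, and overlapped for the other 7. PSMD3, a subunit of the lid (chromosome 17, 39980797 to 39997960), had 113, 119 and 128 FPKM with LIG, against 102, 103 and 104 FPKM with TGF-β alone. PSMD11, a lid subunit that stabilises the attachment of the cap (chromosome 17, 32444261 to 32483318), had 63.2, 66.6 and 66.8 FPKM with LIG, against 55.0, 60.0 and 54.7 FPKM with TGF-β alone. PSMD1, a scaffold at the base of the cap, had 62.0, 64.1 and 65.9 FPKM with LIG, against 56.9, 61.3 and 57.4 FPKM with TGF-β alone. In these 3 genes, every LIG library lay above every TGF-β library. The log2 changes were 0.22 ± 0.07 (SE; adjusted p = 0.354), 0.21 ± 0.07 (SE; adjusted p = 0.358) and 0.13 ± 0.06 (SE; adjusted p = 0.658). Leaving out any library kept the change of PSMD3 between 0.17 and 0.26 and that of PSMD11 between 0.19 and 0.25. PSMD2 was also separated, with 437, 437 and 475 FPKM with LIG, against 386, 410.1 and 419 FPKM with TGF-β alone (log2 change 0.15, adjusted p = 0.712). PSMD4, a ubiquitin receptor of the cap, and PSMD14, which cuts ubiquitin chains from substrates, had changes of 0.16 and 0.12 with overlapping groups. PSMD6, another lid subunit, had the smallest change of the cap genes, 0.02.

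The immunoproteasome genes were lower on average with LIG. PSMB8 (chromosome 6, 32840717 to 32844703), which replaces PSMB5, had 18.0, 20.5 and 21.9 FPKM with LIG, against 22.8, 24.7 and 21.8 FPKM with TGF-β alone. Of the LIG libraries, replicate 3 alone lay above the lowest TGF-β library. PSMB9 (chromosome 6, 32844136 to 32859585), which replaces PSMB6, had 13.5, 11.98 and 14.8 FPKM with LIG, against 13.8, 17.9 and 16.0 FPKM with TGF-β alone. PSMB10 (chromosome 16, 67934502 to 67937087), which replaces PSMB7, had 8.87, 9.30 and 13.1 FPKM with LIG, against 10.4, 12.7 and 12.1 FPKM with TGF-β alone. For PSMB9, LIG replicate 3 lay within the range of the TGF-β libraries, and for PSMB10 it lay above all of them, while LIG replicates 1 and 2 lay below. The log2 changes were -0.19 ± 0.09 (SE; adjusted p = 0.592), -0.23 ± 0.11 (SE; adjusted p = 0.642) and -0.17 ± 0.14 (SE; adjusted p = 0.857), and none passed. Leaving out 1 library gave -0.25 to -0.12 for PSMB8 and -0.32 to -0.14 for PSMB9. For PSMB10 it gave -0.33 when LIG replicate 3 was dropped and -0.07 or -0.10 when LIG replicate 1 or 2 was. Dropping TGF-β replicate 2 gave -0.11. These genes rest on 1062 to 1469, 468 to 712 and 335 to 503 fragments per library. PSMB8 and PSMB9 lie on opposite strands of the major histocompatibility region, and their ends overlap. They share 139 annotated exon bases, 4.6% of those of PSMB8 and 4.5% of those of PSMB9. Annotated exons of PSMB8-AS1, on the strand opposite to PSMB8, overlap 20.6% of the exon bases of PSMB8. On the same strand as PSMB9 they overlap 5.7% of its exon bases. For PSMB10, 34.8% of the exon bases are shared with AC040162.1 on the same strand.

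Each immunoproteasome gene was then set against the standard subunit it replaces, as a ratio of FPKM within a library, which cancels what multiplies both genes alike. The ratio of PSMB8 to PSMB5 was 0.219, 0.249 and 0.216 with LIG, against 0.311, 0.271 and 0.285 with TGF-β alone. That of PSMB9 to PSMB6 was 0.112, 0.0918 and 0.0893 with LIG, against 0.118, 0.13 and 0.133 with TGF-β alone. That of PSMB10 to PSMB7 was 0.077, 0.0821 and 0.0913 with LIG, against 0.1, 0.106 and 0.113 with TGF-β alone. In all 3 pairs every LIG library lay below every TGF-β library, LIG replicate 3 and TGF-β replicate 2 included. The means were 0.228 ± 0.0182 and 0.289 ± 0.0201 for PSMB8 to PSMB5, 0.0977 ± 0.0124 and 0.127 ± 0.00826 for PSMB9 to PSMB6 and 0.0835 ± 0.00726 and 0.106 ± 0.00661 for PSMB10 to PSMB7 (LIG, then TGF-β alone; SD, n = 3 each). The log2 ratio differed by -0.34, -0.39 and -0.35, LIG minus TGF-β. The exact two-sided permutation p was 0.1 for each (0.1 adjusted over the 3 ratios), the smallest that 3 against 3 libraries can give, so the design cannot reach 0.05. Leaving out any library kept the differences between -0.29 and -0.49. With other partners, the ratio of PSMB8 lay lower in all LIG libraries for 14 of 14 core and 17 of 17 cap genes, against 44% of all other genes tested. For PSMB9 this was so with 14 and 16 of them, against 33.5%, and for PSMB10 with 13 and 8, against 13.3%. The core and cap genes vary together over these libraries, so these counts do not stand for separate observations. Set against the median log2 FPKM of all kept genes in place of a subunit, a choice made after seeing the data, the differences were smaller, at -0.23, -0.27 and -0.21 (exact two-sided permutation p = 0.1, 0.2 and 0.4).

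**Figure D4:**
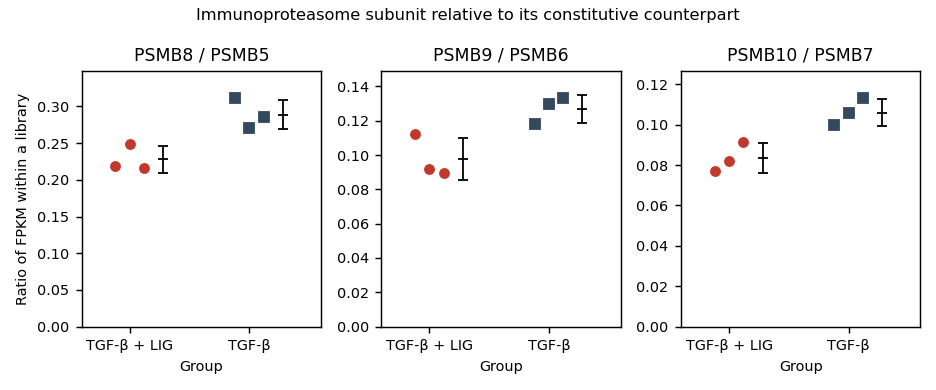
FPKM of PSMB8, PSMB9 and PSMB10 divided by that of PSMB5, PSMB6 and PSMB7 in the same library, with TGF-β and LIG (circles) left of TGF-β alone (squares); bars give the mean and SD of 3 libraries. In each panel all 3 LIG libraries lie below all 3 TGF-β libraries.

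Assembly factors, which help to build the particle and are not part of the finished one, showed changes near 0. PSMD10, also known as gankyrin, had 27.5, 27.7 and 29.7 FPKM with LIG, against 27.0, 32.9 and 28.4 FPKM with TGF-β alone. PSMD9 had 7.07, 7.26 and 9.92 FPKM with LIG, against 7.72, 8.08 and 7.81 FPKM with TGF-β alone, and PSMD5 had 24.2, 24.9 and 22.8 FPKM with LIG, against 23.9, 24.2 and 23.2 FPKM with TGF-β alone. These chaperones of the cap base overlapped between the groups, with log2 changes of -0.05, 0.02 and 0.01. Of the chaperones of the core, PSMG2 had 83.5, 84.1 and 101 FPKM with LIG, against 78.7, 98.0 and 85.7 FPKM with TGF-β alone. PSMG3 had 7.97, 6.67 and 11.8 FPKM with LIG, against 7.68, 9.52 and 8.38 FPKM with TGF-β alone, with LIG replicates 2 and 3 at the extremes. PSMG1, the partner of PSMG2, had 19.7, 18.3 and 20.3 FPKM with LIG, against 17.8, 21.8 and 18.998 FPKM with TGF-β alone. Their changes were 0.03, 0.01 and 0.00 (adjusted p of 0.98 or more). PSMG4, below 1 FPKM, had 0.570, 0.866 and 0.751 FPKM with LIG, against 0.645, 0.720 and 0.655 FPKM with TGF-β alone.

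The activators are caps other than 19S that open the core. PSME3, the nuclear PA28γ, had 92.7, 96.5 and 94.3 FPKM with LIG, against 88.8, 89.4 and 90.8 FPKM with TGF-β alone. PSME2, a subunit of the interferon-inducible activator PA28, had 88.0, 92.6 and 115 FPKM with LIG, against 80.5, 102 and 88.7 FPKM with TGF-β alone. PSME1, its partner, had 54.8, 51.7 and 67.2 FPKM with LIG, against 51.8, 58.3 and 50.8 FPKM with TGF-β alone. Groups did not overlap for PSME3, whose log2 change was 0.07 ± 0.06 (SE; adjusted p = 0.841), and overlapped for the others (log2 changes 0.12 and 0.10). Their estimates had the sign of the standard subunits and not that of PSMB8 to PSMB10, a difference that was not tested. PSME4, the large activator PA200, had a change of 0.05.

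Of the rows that encode no proteasome protein, PSMB8-AS1 had the lowest estimate of all members. It had 0.946, 0.952 and 1.54 FPKM with LIG, against 1.44, 1.96 and 1.66 FPKM with TGF-β alone, on 58 to 121 fragments, with LIG replicate 3 above TGF-β replicate 1. Its log2 change was -0.33 ± 0.12 (SE; adjusted p = 0.482). At this low level the size depended on the pseudocount, with -0.54 for a pseudocount of 0.1 and -0.58 by voom on fragments, neither of which passed. Exons of PSMB8 overlap 31.7% and those of TAP1 23.4% of its exon bases on the opposite strand, so without stated use of strand its reads cannot be told from theirs. PSMA3-AS1, an antisense transcript named for PSMA3, had a change of 0.00. PSMC3IP, a factor of meiotic recombination, had 33.3, 32.2 and 40.8 FPKM with LIG, against 31.8, 38.0 and 33.3 FPKM with TGF-β alone, and PSME3IP1 had 15.7, 16.0 and 17.8 FPKM with LIG, against 16.7, 16.8 and 15.6 FPKM with TGF-β alone. Both had overlapping groups and changes of 0.04 and 0.01. PSMD6-AS2 and PSMG3-AS1 stayed below 1 FPKM on average.

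Genes around the proteasome were read from 4 lists, and none of their members passed. Over all genes tested, 0.692% passed, 60.9% had changes above 0, and 9.07% had every LIG library above every TGF-β library. Genes of a list share their libraries and are not independent observations, so the counts below carry no test. Of 13 proteasome genes outside the symbol rule, 13 were tested, 0 passed and 12 had changes above 0 (median 0.08). ADRM1, a ubiquitin receptor of the cap, had 49.9, 52.7 and 66.1 FPKM with LIG, against 43.2, 47.7 and 45.5 FPKM with TGF-β alone, with all LIG libraries above the others. Its log2 change was 0.29 ± 0.11 (SE; adjusted p = 0.473). USP14, a deubiquitinase bound to the cap, TXNL1, a thioredoxin-like cap partner, and POMP, the maturation factor of the core, had changes of 0.11, 0.11 and 0.15. Of 17 genes of NRF1 and its activation, 17 were tested, 0 passed and 15 had changes above 0 (median 0.08). NFE2L1 itself had 80.2, 79.7 and 75.4 FPKM with LIG, against 77.9, 67.8 and 80.7 FPKM with TGF-β alone (log2 change 0.06). The 4 with the smallest p were MAFF and MAFG, small MAF partners, NPLOC4, a cofactor of the VCP segregase, and SYVN1, a ubiquitin ligase of the endoplasmic reticulum, with changes of 0.19, 0.15, 0.16 and 0.11; groups overlapped for MAFG, and for the others all LIG libraries lay above.

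Of 17 ubiquitin genes, shuttles and chain-binding factors, 16 were tested, 0 passed and 13 had changes above 0 (median 0.08), against 60.9% of all genes. SQSTM1, the autophagy receptor p62 and a known NRF2 target, had 91.9, 92.0 and 107 FPKM with LIG, against 65.2, 75.1 and 69.3 FPKM with TGF-β alone. Its groups were well separated, and the log2 change was 0.47 ± 0.09 (SE; adjusted p = 0.0729). The call depended on the processing. The limma adjusted p was 0.0122 on TPM and 0.00499 after quantile normalization. It was 8.56e-05 with library quality weights and 0.000573 without LIG replicate 3 and TGF-β replicate 2, fits that called many more genes. Against these, it was 0.109 after median centring, 0.228 with no filter and 0.255 with the replicate number as a block. When 1 library was left out it was 0.0599 to 0.402. ZFAND2A, a stress-induced partner of the proteasome, had a change of 0.11 with overlapping groups. Antigen processing genes under interferon control, the usual company of the immunoproteasome, had 9 of 14 changes below 0, with a median of -0.04 and 0 passing. Over all genes tested, 4187 of 10695 changes lay below 0. TAP1, which lies beside PSMB9, had 17.3, 18.5 and 20.1 FPKM with LIG, against 18.9, 19.7 and 19.2 FPKM with TGF-β alone (log2 change -0.05). TAPBP and TAP2 had changes of 0.14 and 0.11, with all LIG libraries above the others, against 9.07% of all genes tested. NLRC5 and HLA-B had -0.11 and -0.12 with overlap. The estimates of PSMB8 to PSMB10 thus had the sign of HLA-B and NLRC5 and not that of TAPBP and TAP2, a difference that was not tested.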

How the data were processed

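Polyadenylated RNA of 6 LX-2 libraries was sequenced, 3 with TGF-β and LIG and 3 with TGF-β alone. The deposited table holds FPKM values which the authors made and named so in the headers. Tools named in the submitters' processing notes, without roles, are fastp, HISAT2 2.1.0 and DESeq2, with the assembly GRCh38.p13; the counter, annotation and use of strand are not given in the sources used here. For each gene the values of the libraries are whole multiples of a step, so fragments, whole within 0.01, could be computed for 22700 of 22701 genes, which gave the depth.

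The 10695 genes that averaged 1 FPKM or more over the libraries entered limma 3.58.1 (R 4.3.3) as log2(FPKM + 1) (group only, empirical Bayes with trend, two-sided, Benjamini-Hochberg over all of them, threshold 0.05); fold changes on this scale understate those of low genes. Ratios were compared by an exact permutation test. Members were described by class, with per-library values for the 3 smallest p per class and for PSMB5 to PSMB10, and outside genes by the 4 smallest p per list, of which some are not reported here; PSMD2, PSME4, NFE2L1 and TAP1 were added for their role after values were seen. The members, lists and promoter patterns were chosen with earlier results of these data known. Coordinates and exon overlaps came from GENCODE 29 (GRCh38). Alternatives changed the pseudocount, filter, scaling, weights, block and libraries; voom on fragments, leaving out LIG replicate 3 and TGF-β replicate 2 together, and both other bases for the ratios were chosen after seeing the data. The fit was tested on simulated data.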

Additional observations from a re-analysis of the deposited data

How the results depend on the processing

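No member passed in 17 of 19 alternative fits, among them all 6 that leave out a library. Library quality weights, which give less weight to libraries far from the fit, called 11 members (8 higher and 3 lower) and 1891 genes in all, of which 10.4% and 7.24% of those tested were higher and lower; among the 11 were PSMD3, PSMD11, PSMC5, PSMB9 and PSMB10. Without LIG replicate 3 and TGF-β replicate 2, 4 members and 497 genes were called. The count over all genes, 74 in the main fit, was 14 with no filter, and 11 to 93 when a library was left out (LIG replicates 1 to 3 left out in turn gave 22, 20 and 93, and TGF-β replicates 21, 29 and 11). With the replicate number as a block it was 22, and 0 members were called. Deviations of same-numbered libraries correlated across genes by 0.469, -0.574 and -0.337. The highest correlation was that of LIG replicate 3 with TGF-β replicate 2 (0.675), the libraries that stand apart. LIG replicate 2 correlated best with TGF-β replicate 1 (0.541). Deviations within a group depend on each other, so these values cannot show whether same-numbered libraries were prepared together.

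Of 834 recomputed changes of 44 genes chosen by the naming rule, 800 kept their sign. Those that turned had main estimates between -0.05 and 0.04, except PSME1 (0.10, and -0.01 without LIG replicate 3), and the cause was not tested. They were PSMD5 -0.01, PSMG3 -0.01, PSME3IP1 -0.01 on TPM; PSMD9 0.00, PSMD5 -0.02, PSMG3 -0.02, PSME3IP1 -0.02 with quantile normalization; PSMD9 0.00, PSMD5 -0.01, PSMG3 -0.01, PSME3IP1 -0.01 with median centring; PSMD9 -0.09, PSMG2 -0.01, PSMG3 -0.20, PSMC3IP -0.02 with library weights; and PSMD9 -0.10, PSMG3 -0.12, PSMG1 0.05, PSME3IP1 -0.02 without both libraries that stand apart, where PSMD5 had 0.06. Leaving out 1 library, the ranges that crossed 0 were PSMC3IP from -0.06 to 0.11, PSMD10 from -0.11 to 0.03, PSMD5 from -0.02 to 0.04, PSMD9 from -0.12 to 0.10, PSME1 from -0.01 to 0.18, PSME3IP1 from -0.04 to 0.05, PSMG1 from -0.06 to 0.08, PSMG2 from -0.06 to 0.12, PSMG3 from -0.19 to 0.17. When 1 library was left out, differences of the log2 ratios spanned -0.29 to -0.41 for PSMB8 to PSMB5 and -0.32 to -0.49 for PSMB9 to PSMB6. For PSMB10 to PSMB7 they spanned -0.30 to -0.42. Without both libraries that stand apart the 3 differences were -0.35, -0.31 and -0.42. Of the tested members, PSMB8-AS1 was least covered, with 58 fragments in its lowest library.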
